A study of Mus musculus with 30 samples.

Results

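The genes of titin, nebulin, the M-band and the myosin-binding proteins were followed by name through the differentiation of mouse muscle cells in chromate: Ttn, Neb, Myom1, Myom2, Myom3, Mybpc1, Mybpc2 and Mybph, 8 of the 48709 genes in the deposited expression table. All 8 passed the level filter, a minimum of 1 scaled CPM in 3 or more libraries, as did 12946 genes in all. The cells were C2C12, an established line of mouse myoblasts (muscle progenitors) and therefore a single genetic background, switched from a growth medium rich in serum to a differentiation medium low in serum. Potassium chromate, a source of hexavalent chromium or Cr(VI), was added to the differentiation medium at 2 or 5 µM and was left out of the controls. The 30 RNA-seq libraries form 10 groups of 3: 5 µM on days 1, 2 and 4, 2 µM on days 1, 2 and 4, and 0 µM (control) on days 0, 1, 2 and 4. The labels call the replicates biological and say nothing more of how separate the cultures were, so the p-values measure the spread between these libraries.

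The sarcomere is the repeated contractile unit of muscle, with myosin thick filaments held between actin thin filaments that are anchored in the Z-disc. Titin (Ttn) is a giant elastic protein that runs from the Z-disc to the M-band in the middle of the sarcomere, and nebulin (Neb) lies along the thin filament and bears on its length. The myomesins (Myom1, Myom2 and Myom3) crosslink titin and myosin in the M-band. The myosin-binding proteins C (Mybpc1, the slow skeletal form, and Mybpc2, the fast skeletal form) and the related protein H (Mybph) sit on the thick filament.

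RefSeq promoter sequences (build GRCm38.p6) were at hand for 6 of the 8 genes, from 250 bases before to 50 bases after the start site. The 250 bases before the start site are shown for 4 of them, 5′ to 3′ on the strand of the gene: Mybpc1 and Mybpc2, which lay farthest apart in their differences from control at 5 µM on day 4, Ttn, which differed least from control at 5 µM among the genes present from day 1, and Mybph, the most abundant of the 8 per kb in differentiated control cells. Capitals mark E-boxes, the sequence CANNTG bound by MyoD-type factors.
Mybpc1: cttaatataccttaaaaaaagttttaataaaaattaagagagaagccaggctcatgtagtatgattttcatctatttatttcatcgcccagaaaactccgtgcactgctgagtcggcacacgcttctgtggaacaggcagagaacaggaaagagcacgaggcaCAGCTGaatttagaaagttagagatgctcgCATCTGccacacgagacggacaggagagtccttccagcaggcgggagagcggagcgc
Mybpc2: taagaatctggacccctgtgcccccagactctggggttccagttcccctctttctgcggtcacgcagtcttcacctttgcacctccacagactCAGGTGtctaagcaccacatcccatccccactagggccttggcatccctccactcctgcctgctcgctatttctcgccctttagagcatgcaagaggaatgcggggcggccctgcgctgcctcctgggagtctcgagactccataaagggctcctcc
Ttn: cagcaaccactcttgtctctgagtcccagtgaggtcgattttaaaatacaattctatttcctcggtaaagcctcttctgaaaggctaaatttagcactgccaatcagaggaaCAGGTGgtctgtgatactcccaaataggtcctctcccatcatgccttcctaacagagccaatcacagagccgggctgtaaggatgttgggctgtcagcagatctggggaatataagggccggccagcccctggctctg
Mybph: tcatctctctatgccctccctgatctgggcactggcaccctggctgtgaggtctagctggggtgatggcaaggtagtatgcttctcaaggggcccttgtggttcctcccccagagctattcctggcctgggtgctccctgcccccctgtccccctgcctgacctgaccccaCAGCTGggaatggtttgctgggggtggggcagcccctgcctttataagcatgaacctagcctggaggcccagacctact
The Mybpc1 stretch runs at chr10:88605153-88605402 on the minus strand, Mybpc2 at chr7:44524670-44524919 on the minus strand, Ttn at chr2:76982548-76982797 on the minus strand and Mybph at chr1:134193198-134193447 on the plus strand. In the full windows, on either strand, at least 1 E-box was found in 6 of 6 promoters, and 72.3% of all 32851 promoters of that length hold one. The narrower form CAGCTG, held by 16.3% of promoters, began 87 bases before the start site in Mybpc1 and 79 bases before it in Mybph. A MEF2 site, held by 3.19% of promoters, was found in Ttn and Myom3, and a CArG box, held by 1.63%, in Myom1. The MCAT element CATTCC, held by 14.7%, was found in Ttn, Mybpc2 and Mybph, and TATAAA, held by 13.6%, in Mybph. Apart from CAGCTG, which is itself an E-box, no motif overlapped another in these windows. A match describes letters and not the binding of a factor.

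Library depth was 18.5 to 26.9 M recovered reads. A read counted for 0.038 to 0.0584 scaled CPM, the unit of the deposited table, which is CPM after a further scaling by the authors. The 5 myogenic markers Myod1, Myf5, Des, Cdh15 and Myog were above 0 in every group, with summed levels of 2425 to 2968 scaled CPM at 5 µM on day 4 and 4576 to 5338 in the day 4 controls. Of these, Myf5, a marker of undifferentiated myoblasts, went the other way, with a mean of 94.1 at 5 µM and 22.3 in control on day 4. A pair of day 1 libraries carried transcripts at 5 scaled CPM or more that were below 1 in every other library. There were 82 such genes in 2 µM replicate 1, whose adipocyte markers summed to 6030 scaled CPM, and 185 in 5 µM replicate 3, whose lung and leukocyte markers summed to 535. The other 28 libraries had 0 such genes. Fewer differentiated cells and less RNA per cell cannot be told apart in these bulk samples.

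In control cells the 8 genes averaged at most 3.66 scaled CPM on day 0 and reached their highest control level on day 4. Levels are mean ± SD of n = 3 libraries. Ttn stood at 3.66 ± 0.512 scaled CPM on day 0, 66.3 ± 14.8 on day 1, 247 ± 36.7 on day 2 and 553 ± 134 on day 4. Neb stood at 0.241 ± 0.379 on day 0, 12.7 ± 1.76 on day 1, 71.4 ± 9.49 on day 2 and 177 ± 36.2 on day 4. Titin transcripts were thus read already on day 0, at 62 to 94 reads per library. Among the M-band genes, Myom2 stood at 1.40 ± 0.236 scaled CPM on day 0, 136 ± 15.2 on day 1, 604 ± 26.5 on day 2 and 1284 ± 103 on day 4. Myom1 stood at 0.204 ± 0.226, 12.8 ± 1.75, 132 ± 6.94 and 280 ± 24.5 on those days, and Myom3 at 0.0281 ± 0.0486, 14.1 ± 0.867, 92.0 ± 1.63 and 233 ± 17.7. All 3 myomesin transcripts were thus well above the day 0 level from day 1. Mybph stood at 1.16 ± 0.528 scaled CPM on day 0, 110 ± 16.1 on day 1, 1155 ± 45.9 on day 2 and 1926 ± 133 on day 4.

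Transcripts of the C-type myosin-binding genes came later. Mybpc1 had 1, 0 and 0 reads in the day 0 libraries and 0 reads in each day 1 library, where 3 reads would have been 0.115 to 0.126 scaled CPM, and then 6.42 ± 1.14 scaled CPM on day 2 and 116 ± 12.2 on day 4. Mybpc2 stood at 0.0150 ± 0.0260 on day 0, 0.249 ± 0.331 on day 1, 9.28 ± 1.66 on day 2 and 19.7 ± 1.75 on day 4. At such low counts replicates scattered widely, as in Neb on day 0, with 1, 0 and 13 reads.

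On day 1 against day 0, 6 of the 8 genes rose in control cells (limma, adjusted p below 0.05), where 25.4% of all genes tested rose. The log2 differences, all on the scale of log2(scaled CPM + 1), were largest for Myom2 (5.84, SE 0.10) and Mybph (5.69, SE 0.13). The exceptions were Mybpc1 (-0.02, 95% interval -0.59 to 0.55) and Mybpc2 (0.27, interval -0.26 to 0.80). Tests on recovered read counts called Mybpc2 higher in this step (adjusted p = 0.031 with edgeR and 0.013 with DESeq2). Its libraries held 1, 0 and 0 reads on day 0 and 1, 2 and 15 on day 1. On day 2 against day 1 all 8 rose (background 12.8%), with log2 differences of 1.90 for Ttn to 3.39 for Mybph. All 8 rose again on day 4 against day 2 (background 11.7%), by 0.74 for Mybph to 3.99 for Mybpc1. The count tests on recovered reads, edgeR and DESeq2, gave Mybpc2 adjusted p = 0.10 and 0.21 in that last step, where all settings gave 3.3e-04 to 0.21.

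Per kilobase of coding sequence, which allows levels of different genes to be set beside each other, Mybph was the most abundant of the 8 in control cells on day 4, at 1329 scaled CPM per kb. Myom2 followed at 293, Myom1 at 55.9, Myom3 at 54.0 and Mybpc1 at 34.4. Neb (8.26), Mybpc2 (5.78) and Ttn (5.24) came last. Ttn, whose coding sequence is 105.6 kb long, therefore had the lowest level per kb of the 8. The order was the same per kb of whole transcript.

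**Figure D1:**
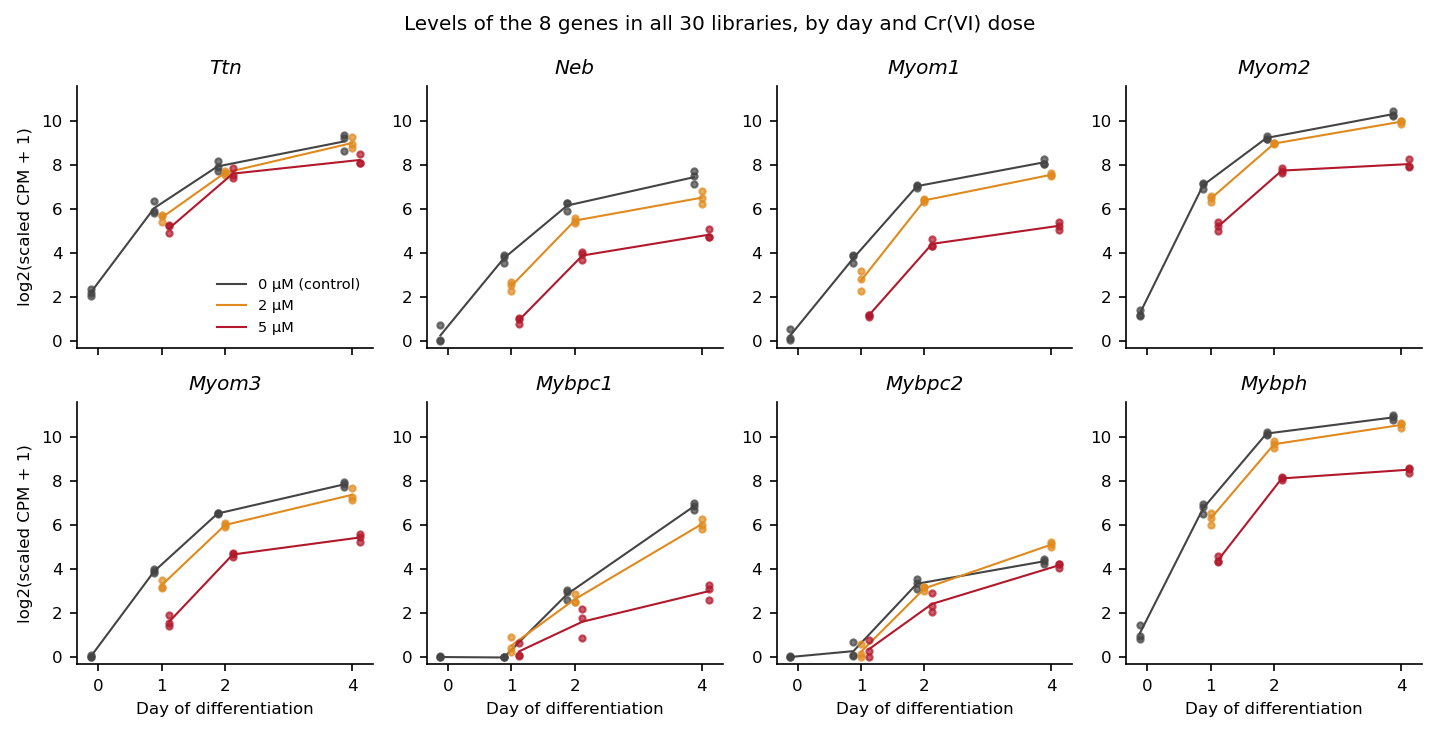
Level of each gene, as log2(scaled CPM + 1), against day of differentiation in all 30 libraries, where points are libraries, lines join group means and colours are Cr(VI) doses. The 5 µM line lies below the control line on every day from day 1 in 6 of the 8 panels, and Mybpc2 ends day 4 with its highest level at 2 µM.

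At 5 µM titin transcripts fell on days 1 and 4 and did not pass the test on day 2. On day 4 Ttn had 369, 271 and 273 scaled CPM at 5 µM, against 602, 401 and 656 in control, so every treated library lay below every control library. This was a fall of 0.84 (log2 difference -0.84, SE 0.16, adjusted p = 4.2e-05), to 55.0% of the control mean. On day 1 it had 29.0, 37.6 and 36.9 scaled CPM at 5 µM, against 83.2, 55.4 and 60.2 in control, again without overlap (log2 difference -0.91, SE 0.16, adjusted p = 1.1e-04). On day 2 the groups overlapped, with 232, 188 and 170 scaled CPM at 5 µM and 215, 287 and 240 in control. That difference was -0.33 (SE 0.16, 95% interval -0.66 to 0.00, adjusted p = 0.15).

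Nebulin fell on each day. On day 4 Neb had 32.9, 25.3 and 25.7 scaled CPM at 5 µM, against 180, 140 and 212 in control, or 15.8% of the control mean (log2 difference -2.61, SE 0.20, adjusted p = 5.0e-13). On day 2 it had 14.4, 15.7 and 11.9 at 5 µM, against 77.1, 76.7 and 60.4 in control (-2.27, SE 0.20). On day 1 it had 0.725, 1.10 and 1.04 at 5 µM, against 13.3, 10.7 and 14.1 in control (-2.81, SE 0.20). The 5 µM means were 19.6% of control on day 2 and 7.53% on day 1, where the 1 added before the logarithm shrinks the difference. The groups were far apart each time, and on day 1 the treated libraries held only 17 to 27 reads of Neb each.

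The M-band genes fell together on each day. Myom1, the myomesin found in all striated muscle, had 42.0, 37.1 and 32.5 scaled CPM at 5 µM on day 4, against 263, 268 and 308 in control (log2 difference -2.88, SE 0.17, adjusted p = 6.0e-16). Myom2, also called M-protein, had 313, 246 and 240 scaled CPM at 5 µM, against 1252, 1201 and 1400 in control (-2.27, SE 0.10, adjusted p = 9.6e-19). Myom3 had 48.4, 43.9 and 36.7 scaled CPM at 5 µM, against 251, 215 and 234 in control (-2.42, SE 0.15, adjusted p = 3.0e-15). No treated library reached a control library in any of the 3 genes, and the day 4 means were 13.3%, 20.7% and 18.4% of control. On day 1 the log2 differences were -2.61 for Myom1, -1.87 for Myom2 and -2.28 for Myom3, and on day 2 they were -2.62, -1.48 and -1.86, all without overlap. The means on days 1 and 2 were 9.75% and 15.7% of control for Myom1, 26.9% and 35.7% for Myom2, and 15.1% and 26.8% for Myom3. The 1 added before the logarithm shrinks differences at low levels, such as those of Myom1 and Myom3 on day 1. Reads of Myom1 may include some from Myl12a, which overlaps it on the other strand and averaged 743 to 1405 scaled CPM over the groups, since the strand of the libraries is not given in the sources used here. On day 0, with Myl12a in that range, the libraries held 1, 11 and 2 reads of Myom1, so any such share was very small there. Adora1, on the other strand of Mybph, averaged at most 9.81 scaled CPM in any group.

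Mybph fell on each day as well. On day 4 it had 383, 393 and 333 scaled CPM at 5 µM, against 1795, 1921 and 2062 in control, or 19.2% of the control mean (-2.38, SE 0.13, adjusted p = 5.7e-17). The log2 differences were -2.34 on day 1 and -2.04 on day 2 (SE 0.13 each). The 2 C-type genes went apart. Mybpc1 had 8.90, 5.12 and 7.76 scaled CPM at 5 µM on day 4, against 118, 103 and 128 in control, a fall to 6.24% of the control mean and the largest difference among the 8 genes on that day (-3.85, SE 0.28, adjusted p = 1.4e-13). Mybpc2 had 18.0, 15.5 and 18.2 scaled CPM at 5 µM on day 4, against 21.4, 19.9 and 17.9 in control, and these ranges overlapped (-0.18, 95% interval -0.71 to 0.35, adjusted p = 0.58).

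On day 2 Mybpc1 had 3.55, 2.52 and 0.838 scaled CPM at 5 µM, against 7.27, 5.12 and 6.86 in control, a fall of 1.25 on the log2 scale (SE 0.28, adjusted p = 9.8e-04). Mybpc2 had 3.98, 6.52 and 3.22 scaled CPM at 5 µM that day, against 9.49, 10.8 and 7.53 in control (-0.91, SE 0.26, adjusted p = 0.0086). The Mybpc2 call ended without control replicate 2 (adjusted p = 0.051) or 5 µM replicate 3 (0.067), and with edgeR (0.15) or DESeq2 (0.28), where the other settings went down to 0.0023. On day 1 Mybpc1 had 1, 14 and 2 reads at 5 µM, against 0 in each control library (0.27, 95% interval -0.30 to 0.85), and Mybpc2 had 17, 6 and 0 reads at 5 µM, against 1, 2 and 15 in control (0.08, interval -0.45 to 0.61). The count tests called Mybpc1 higher that day (adjusted p = 0.027 with edgeR and 0.0023 with DESeq2), against control libraries with no read. With so few reads in control cells a fall could not have been measured that day.

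In all, 6 of the 8 genes fell at 5 µM on day 1, where 9.41% of all genes tested fell, 7 on day 2 (background 13.4%) and 7 on day 4 (background 28.6%). The medians of the 8 log2 differences were -2.08, -1.67 and -2.40 on days 1, 2 and 4, where the medians over all genes were -0.01 on each day. None of the 8 rose in limma, where 4.29%, 10.2% and 27.3% of all genes rose on those days. Some markers of other cell types differed between the doses on day 4. The 3 fibroblast markers Pdgfra, Dcn and Lum summed to 564 to 582 scaled CPM at 5 µM and 124 to 132 in control. The higher sum was Dcn alone, with a mean of 565 at 5 µM and 119 in control, whereas Pdgfra averaged 6.08 at 5 µM and 8.57 in control. Lum averaged 0.063 at 5 µM, where 2 of the 3 libraries had no read, and 0.79 in control. Of the 6 cardiomyocyte markers, 4 were above 0 in each group, with sums of 4.55 to 8.76 at 5 µM and 23.5 to 30.6 in control, and Ryr2 was at 0 in both. Most of that difference was Myh6, with a mean of 1.04 at 5 µM and 21.8 in control, whereas Nppb averaged 2.01 at 5 µM and 1.13 in control. The part of these markers in the falls was not tested.

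**Figure D2:**
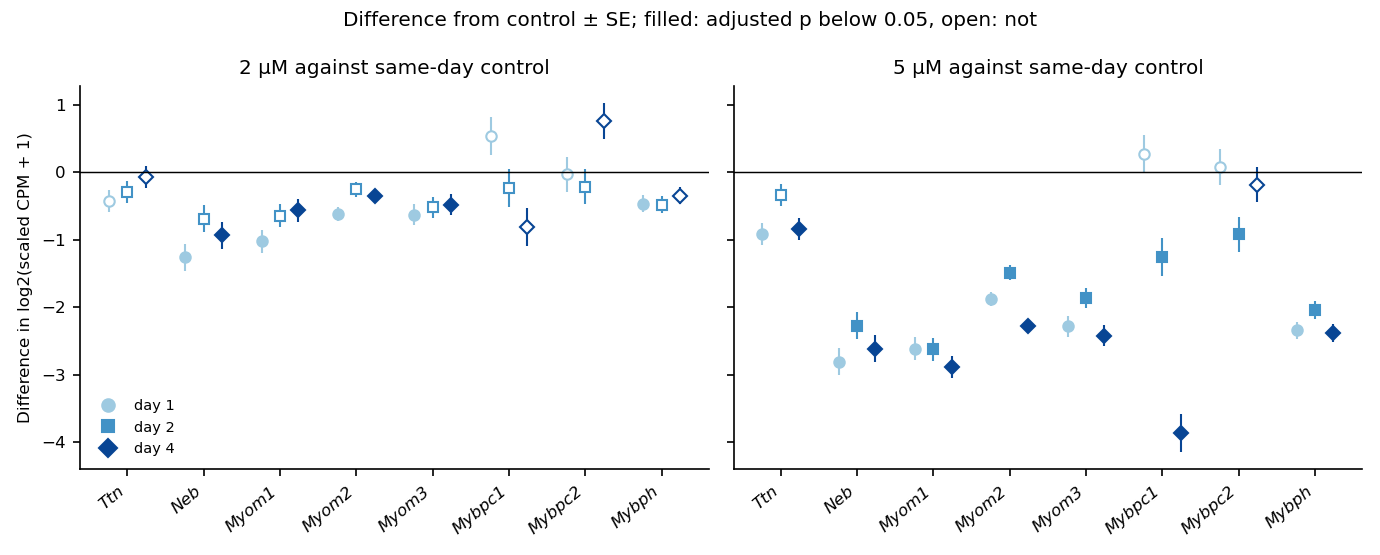
Difference of each gene from the same-day control in log2(scaled CPM + 1), with its standard error, at 2 µM (left) and 5 µM (right) on days 1, 2 and 4; filled symbols passed an adjusted p of 0.05 in limma and open ones did not. At 5 µM, Ttn and Mybpc2 lie closest to 0 on day 4 (-0.84 and -0.18) and Mybpc1 farthest from it (-3.85).

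At 2 µM the differences were smaller, and nebulin showed the largest. On day 4 Neb had 74.3, 114 and 89.0 scaled CPM at 2 µM, against 180, 140 and 212 in control, without overlap (log2 difference -0.93, SE 0.20, adjusted p = 0.0019). This was 52.1% of the control mean, and the call held when any single library was left out. Myom1 (-0.56, adjusted p = 0.031), Myom2 (-0.35, adjusted p = 0.031) and Myom3 (-0.48, adjusted p = 0.042) fell as well, so that 4 of the 8 genes fell (background 3.74%). The count came down to 1 or 2 when any one of the 6 libraries compared (2 µM replicates 1, 2 and 3 or control replicates 1, 2 and 3) was left out. Ttn had 445, 619 and 492 scaled CPM at 2 µM, against 602, 401 and 656 in control, overlapping (-0.08, 95% interval -0.41 to 0.26).

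Mybpc2 was the one gene of the 8 with a higher mean at 2 µM than in control on day 4. It had 31.2, 36.7 and 34.4 scaled CPM at 2 µM, against 21.4, 19.9 and 17.9 in control, 173% of the control mean, and every 2 µM library lay above every control library. The difference did not pass the test over all genes (0.76, 95% interval 0.23 to 1.29, adjusted p = 0.062). Over the other settings its adjusted p ran between 0.013 and 0.56. Mybpc1 had 56.4, 77.7 and 64.2 scaled CPM at 2 µM, against 118, 103 and 128 in control, also without overlap (-0.81, 95% interval -1.39 to -0.24, adjusted p = 0.066). Mybph did not pass (-0.34, interval -0.60 to -0.08, adjusted p = 0.091), again without overlap. Over the other settings the adjusted p ran from 0.014 to 0.35 for Mybpc1 and from 0.013 to 0.29 for Mybph. Of the fibroblast markers, Dcn averaged 296 scaled CPM at 2 µM on day 4 and 119 in control, and Pdgfra 8.28 at 2 µM and 8.57 in control.

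**Figure D3:**
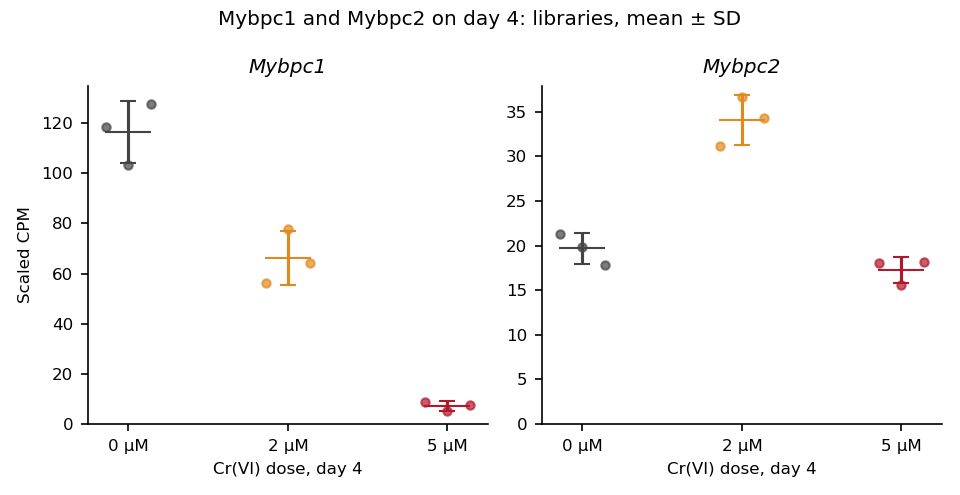
Mybpc1 (left) and Mybpc2 (right) on day 4 in scaled CPM by Cr(VI) dose, where points are libraries and bars are mean ± SD (n = 3). Mybpc1 drops with dose, with means of 116, 66.1 and 7.26, while Mybpc2 is highest at 2 µM, with means of 19.7, 34.1 and 17.3.

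The balance of the C-type genes was also read within each library. The log2 ratio of Mybpc1 to Mybpc2, with 1 added to each, was 2.50 ± 0.23 in control, 0.93 ± 0.12 at 2 µM and -1.17 ± 0.25 at 5 µM on day 4 (SD, n = 3 each). The 3 doses did not overlap. The exact permutation p was 0.10 for 5 µM against control and for 2 µM against control, two-sided, which is the smallest that 3 against 3 libraries can give, and 0.13 after adjustment over 45 such tests. On day 2 the ratio was -0.47 ± 0.43 in control, -0.49 ± 0.19 at 2 µM and -0.81 ± 0.59 at 5 µM, with overlap. Per kb of coding sequence Mybpc1 stood at 2.15 scaled CPM and Mybpc2 at 5.07 in 5 µM cells on day 4, against 34.4 and 5.78 in control cells. The heart form Mybpc3 averaged at most 0.66 scaled CPM in any group, and Mybphl was at 0 throughout.

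On day 2 at 2 µM, none of the 8 genes passed in limma, and 0.247% of all genes fell. Log2 differences ran between -0.69 for Neb and -0.21 for Mybpc2. At an unadjusted p below 0.05, 5 of the 8 were lower (background 4.67%), and DESeq2 called 4 (background 0.757%). On day 1 at 2 µM, 5 genes fell (background 1.48%): Neb (-1.26), Myom1 (-1.02), Myom3 (-0.63), Myom2 (-0.61) and Mybph (-0.46, adjusted p = 0.049). Of these, Mybph overlapped with control, with 92.9 scaled CPM in a 2 µM library and 91.8 in a control library. Its limma call also ended with no filter (adjusted p = 0.15), a pseudocount of 0.5 (0.087) or a robust fit (0.054). Neb had 4.93, 5.41 and 3.91 scaled CPM at 2 µM that day, against 13.3, 10.7 and 14.1 in control, well apart. Mybpc1 went the other way, with 5, 7 and 22 reads at 2 µM and 0 in each control library (0.54, 95% interval -0.03 to 1.12, adjusted p = 0.43). The count tests called it higher (adjusted p = 0.00894 with edgeR and 3.5e-04 with DESeq2). The count of 5 became 3 without the pair of libraries with other transcripts. It was also 3 without control replicate 1, control replicate 3, 2 µM replicate 1 or 2 µM replicate 2, when Myom3 and Mybph no longer passed. When only the 2 groups entered the fit it was 0.

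Set directly against 2 µM, 5 genes were lower at 5 µM on day 1 (background 4.25%), 6 on day 2 (background 8.13%) and all 8 on day 4 (background 24.8%). Of the day 1 calls, Neb, Myom1 and Myom3 ended when only the 2 groups entered the fit. The day 2 call of Mybpc1 (-1.02, adjusted p = 0.012) ended in that fit (0.088), with DESeq2 (0.11), without 2 µM replicate 3 (0.075) and without 5 µM replicate 3 (-0.64, adjusted p = 0.16). The log2 differences on day 4 were -3.04 for Mybpc1, -2.32 for Myom1, -2.04 for Mybph, -1.94 for Myom3, -1.93 for Myom2, -1.68 for Neb, -0.94 for Mybpc2 and -0.77 for Ttn. Mybpc2 thus fell between 2 and 5 µM (adjusted p = 0.0031) although 5 µM and control overlapped. With edgeR (adjusted p = 0.095) or DESeq2 (0.20) that call was lost, where the other settings went down to 2.6e-04. The 2 µM and 5 µM comparisons with control share their control libraries.

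Transcripts of the 8 genes still accumulated in treated cells. At 2 µM all 8 rose on day 2 against day 1 (background 12.7%) and on day 4 against day 2 (background 12.1%). At 5 µM all 8 rose on day 2 against day 1 (background 12.9%) and on day 4 against day 2 (background 21.0%). In that last step the log2 differences were 0.29 for Myom2 to 1.75 for Mybpc2 at 5 µM, where control cells showed 0.74 to 3.99. The rise of Myom2 at 5 µM (adjusted p = 0.023) was lost without 5 µM day 2 replicate 1 or 3 or day 4 replicate 1, with library totals as scaling (0.23, adjusted p = 0.077) and when only the 2 groups entered the fit (0.056), and that of Mybph (0.40, adjusted p = 0.013) without day 4 replicate 2.

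Whether the 5 µM effect changed between days was tested as a difference of differences. Against day 2, the effect on day 4 was lower for Mybpc1 (-2.60, SE 0.40, adjusted p = 7.8e-06) and Myom2 (-0.79, SE 0.15, adjusted p = 1.4e-04), 2 of the 8 (background 11.2%). For the other 6 the change did not pass, among them Myom3 (-0.56, 95% interval -0.99 to -0.12, adjusted p = 0.056) and Mybpc2 (0.73, interval -0.01 to 1.48). On day 2 against day 1, Mybpc1 passed (-1.53, SE 0.40, adjusted p = 0.014), 1 of the 8 (background 2.76%), with control cells at 0 reads on day 1. Without 5 µM day 2 replicate 3 it did not (-1.15, adjusted p = 0.073), the highest of the settings, which went down to 2.2e-04. The count tests called Mybpc1 lower too, and called the change higher, a smaller fall on day 2, for Neb (0.54 in limma) and Myom3 (0.42). Without the 1 added, their estimates were larger, at 1.37 for Neb in both and 0.82 (edgeR) and 0.81 (DESeq2) for Myom3. No change of the 2 µM effect passed on day 2 against day 1, where 0% of all genes passed in limma, or on day 4 against day 2 (background 0.263%). At an unadjusted p below 0.05 in limma, 1 of the 8 passed in each (background 6.26% and 7.16%), Myom2 (0.36) in the earlier step and Mybpc2 (0.97) in the later. DESeq2 called 1 in the earlier step (background 0.433%), Mybpc1 as lower, with control cells at 0 reads of it on day 1.

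To place treated cells on the control course, 5 µM cells were set beside control cells of the sampled day before. On day 4 at 5 µM, 5 genes were lower than in control cells on day 2 (background 27.6%): Myom1 (-1.80), Mybph (-1.64), Neb (-1.32), Myom2 (-1.19) and Myom3 (-1.09). Myom1, for instance, had 42.0, 37.1 and 32.5 scaled CPM at 5 µM on day 4, against 133, 138 and 124 in control on day 2. Mybpc2 was higher (0.84, SE 0.26, adjusted p = 0.0069), 1 of the 8 (background 25.6%), with 18.0, 15.5 and 18.2 scaled CPM against 9.49, 10.8 and 7.53, a call that edgeR (0.13) and DESeq2 (0.25) did not make and other settings made, down to 0.0011. Ttn (0.29, 95% interval -0.04 to 0.62) and Mybpc1 (0.14, interval -0.43 to 0.71) overlapped between the groups. On day 2 at 5 µM, 7 genes were higher than in control cells on day 1 (background 12.7%), and Neb did not pass (0.13, interval -0.28 to 0.54).

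**Figure D4:**
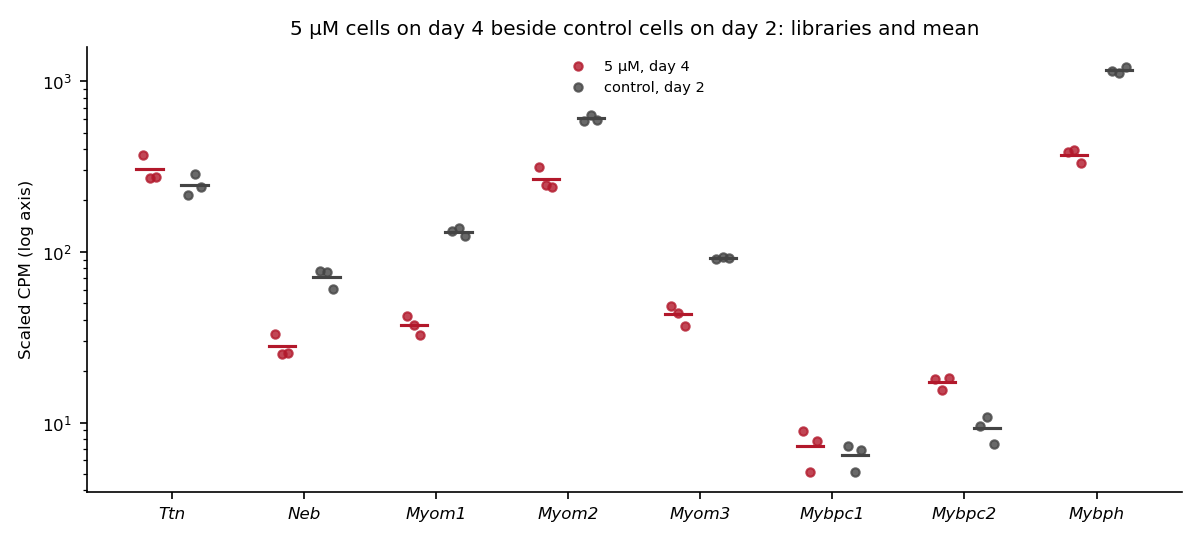
Scaled CPM (log axis) of each gene in 5 µM cells on day 4, left of control cells on day 2, where points are libraries and bars are means. The treated libraries lie below the control libraries for Neb, Myom1, Myom2, Myom3 and Mybph, above them for Mybpc2, and overlap them for Ttn and Mybpc1.

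The order of the 10 group means comes from the same levels and is no separate test. How many of all genes have such an order, or as little overlap between neighbours, was not counted. In Myom1, Myom2 and Myom3 the order was identical, from control day 4 down through 2 µM day 4, control day 2, 2 µM day 2, 5 µM day 4, 5 µM day 2, control day 1, 2 µM day 1 and 5 µM day 1 to control day 0, and none of the 9 steps had overlapping neighbours. Neb and Mybph had that order too, with overlap in 2 steps and 1 step. Ttn and Mybpc1 had 5 µM day 4 above control day 2, with overlap there, and overlapping neighbours in 4 and 6 of the 9 steps. Mybpc2 alone had 2 µM day 4 at the top, and its neighbours overlapped in 5 steps.

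Because the genes fell by different amounts, the makeup of their RNA shifted. The 8 genes summed to 1073 ± 128 scaled CPM at 5 µM on day 4 and 4590 ± 385 in control. Ttn made up 28.2 ± 2.12% of that sum at 5 µM and 12.0 ± 2.23% in control. The shares did not overlap on day 1 (35.7 ± 3.79% at 5 µM and 18.8 ± 2.58% in control) or on day 2 (25.9 ± 3.29% and 10.7 ± 1.36%) either. The log2 ratio of Ttn to Myom1 was 2.99 ± 0.14 at 5 µM and 0.95 ± 0.33 in control on day 4, without overlap. Within the M-band genes, the log2 ratio of Myom2 to Myom1 was 2.80 ± 0.09 at 5 µM and 2.20 ± 0.04 in control on day 4, and 3.33 ± 0.10 and 2.19 ± 0.05 on day 2. For each of these log2 ratios the exact permutation p was 0.10, two-sided and the smallest possible, and 0.13 adjusted over the 45 tests.

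A list of 36 partner genes was counted beside the 8, with titin and M-band binders, myosin chaperones, thin filament and nebulin-family proteins, paralogs and regulators of titin splicing; 32 of them passed the filter. At 5 µM, 17 partners fell and 0 rose on day 1, 20 fell and 3 rose on day 2, and 25 fell and 3 rose on day 4. Over all genes 9.41%, 13.4% and 28.6% fell and 4.29%, 10.2% and 27.3% rose on those days. Their median log2 differences were -0.79, -0.95 and -1.39 on days 1, 2 and 4, against the -0.01 of all genes. On day 1 the largest falls were in the myosin chaperone Unc45b (-2.75), the leiomodin Lmod2 (-2.29), the nebulin-binding kelch protein Klhl41 (-2.20) and the muscle methyltransferase Smyd1 (-2.01). On day 2 they were in the Z-disc actinin Actn2 (-2.63), the titin-binding ankyrin proteins Ankrd2 (-2.56) and Ankrd23 (-1.81), and Unc45b (-2.30). On day 4 they were in Ankrd2 (-3.89), the titin-bound protease Capn3 (-2.92), Actn2 (-2.91) and Unc45b (-2.82).

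The 3 partners that rose at 5 µM on days 2 and 4 were Fhl1, Lasp1 and Hsp90aa1, named after their values were seen. Their day 4 log2 differences were 1.34, 1.10 and 0.97. On day 1 Fhl1 had fallen (-0.64). Fhl1 is a LIM protein that binds titin, Lasp1 a nebulin-family protein made in many cell types, and Hsp90aa1 a chaperone that works with Unc45b. The M-band partner Obsl1 (-2.23, SE 0.18) fell on day 4. Rbm20, which represses titin exons, averaged 44.9 ± 12.3 scaled CPM at 5 µM on day 4 and 83.5 ± 8.20 in control (-0.91, SE 0.14, adjusted p = 1.8e-06). Rbm24, another muscle splicing factor, averaged 152 ± 1.88 at 5 µM and 269 ± 8.06 in control (-0.81, SE 0.13, adjusted p = 2.1e-06). Isoforms of Ttn are not resolved in a table of gene totals.

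At 2 µM, 10 partners fell and 0 rose on day 1, where the largest falls were in Trim63 (-1.35), Unc45b (-0.97), Klhl41 (-0.80) and Lmod2 (-0.78). On day 2 Klhl41 alone fell (-0.68), where 0.247% of all genes fell. Over all genes 1.48% fell and 0.518% rose on day 1. On day 4, 6 fell (background 3.74%), led by Ankrd2 (-1.23), Unc45b (-0.92), Tmod1 (-0.82) and Klhl41 (-0.72), and 3 rose (background 5.11%), Fhl2, Fhl1 and Lasp1. Medians over the 32 were -0.30, -0.22 and -0.21 on days 1, 2 and 4.

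**Figure D5:**
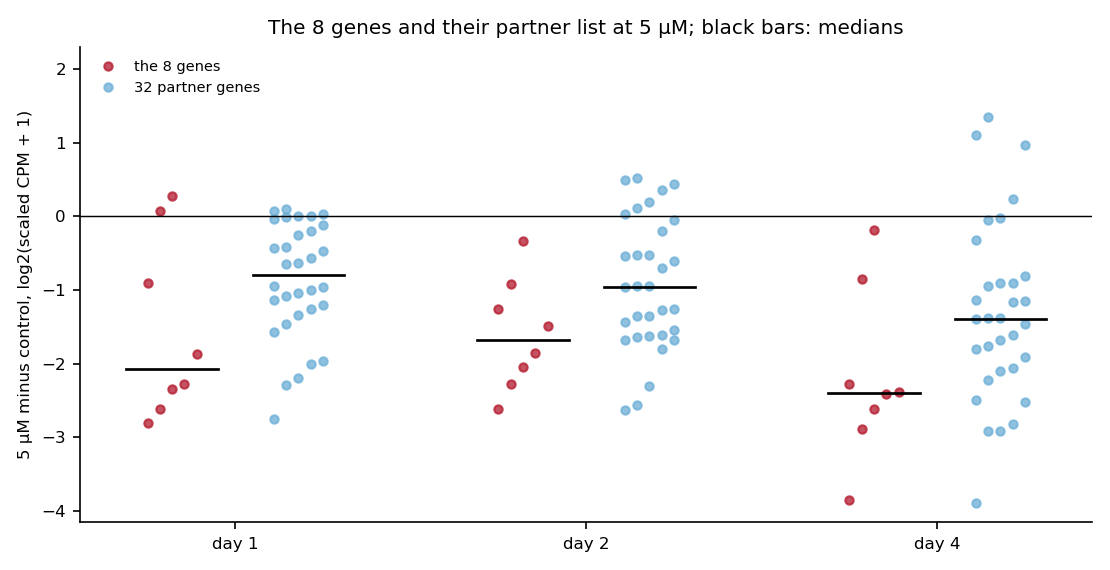
Difference between 5 µM and same-day control in log2(scaled CPM + 1) for the 8 genes (red, left in each pair) and the 32 partner genes tested (blue, right), by day, where black bars are medians. The medians of the 8 genes (-2.08, -1.67 and -2.40) lie below those of the partners (-0.79, -0.95 and -1.39).

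Over the 10 group means, the Pearson r of each gene with the mean standardised profile of the other 7 lay between 0.861 for Mybpc1 and 0.994 for Myom3. In all, 10983 genes, the 8 included, had a highest group mean of at least 5 scaled CPM. Among the others of these, the profile nearest to the mean of the 8 was that of Pygm, muscle glycogen phosphorylase (r = 0.997), followed by Rab40b, Cacnb1, Pgm5 and Klhl31. Nearest to Ttn was the myosin light chain Myl1 (r = 0.998), nearest to Myom2 Synpo2l (0.999) and the embryonic acetylcholine receptor subunit Chrng (0.999), and nearest to Mybph the reticulum protein Srl (0.998). Mybpc1 lay nearest to Jakmip1 (0.992), whose highest group mean of 5.34 scaled CPM was just above the cut of 5. Mybpc2 lay nearest to the small heat shock protein Cryab (0.993). The 10 points share the days of differentiation, on which many genes rose, so such values describe the profiles only.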

How the data were processed

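The authors deposited 1 table of the whole series with a column per library, named CPM in the labels. The deposited values are a signal: each was a whole number of reads times a constant of its library (100% whole within 0.02 of a read), and columns summed to 892246 to 1079916, so a further scaling had been applied, and they are called scaled CPM. The aligner, counter, scaling, strand and build were not given in the sources used here. TruSeq libraries of total RNA were sequenced, per the labels.

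The filter kept genes that reached 1 scaled CPM in 3 or more libraries. limma (3.58.1, R 4.3.3) was fitted to log2(scaled CPM + 1) over all 30 libraries, with 10 group means, a mean-variance trend and 20 residual degrees of freedom. Calls are genes with an adjusted p below 0.05 (Benjamini-Hochberg over the 12946 genes tested), and "rose", "fell" and the like mark calls. Standard errors and 95% intervals come from that fit. Ratios within a library were compared by exact permutation tests (scipy 1.17.1). edgeR 4.0.16 (quasi-likelihood) and DESeq2 1.42.0 were run on the recovered reads as alternatives, beside other filters, pseudocounts, scalings, fits and left-out libraries. Floors of 3 reads cover counting error only. Coding lengths are from GENCODE mouse M21, and motifs were searched in RefSeq promoters of GRCm38.p6.

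The members and lists were chosen with earlier results of these data known. All 8 members are named whatever their result. Of the partner list, up to 4 called genes with the largest change are named per comparison, beside a few set down by name (Obsl1, Mybpc3, Mybphl, Rbm20, Rbm24); another gene of that list is counted but not reported here by name. For likeness, up to 5 genes for the mean profile and the nearest for a member are named.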

Additional observations from a re-analysis of the deposited data

Results flagged for a closer look

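The difference between 5 µM and control was itself different between sampled days for 2 of the 8 genes, by the limma test of the difference of differences. Over all genes tested, 2.76% were called lower on day 2 against day 1 and 11.2% on day 4 against day 2. For Mybpc1 the effect changed by -1.53 on day 2 against day 1 (adjusted p = 0.014) and by -2.6 on day 4 against day 2 (adjusted p = 7.8e-06), in log2(scaled CPM + 1). The control libraries of day 1 held 0 reads of Mybpc1, so that its day 1 difference of 0.27 had no room below it. For Myom2 the effect changed by -0.791 on day 4 against day 2 (adjusted p = 1.4e-04). At 5 µM it had 26.9% of the control mean on day 1, 35.7% on day 2 and 20.7% on day 4.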

How the results depend on the processing

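No 5 µM count of called genes against control, and no count between days within a dose, left 1.5 times its value under any setting. The count at 2 µM on day 1 (5) became 0 with only the groups compared, 3 without the pair of day 1 libraries with other transcripts, and 3 to 5 with single libraries left out. On day 2 (0) it became 2 with a pseudocount of 2, 5 with only the groups compared, 4 with DESeq2 and 1 without that pair. On day 4 (4) it became 2 with a pseudocount of 0.5 and 1 to 2 with single libraries left out. With a pseudocount of 2, 5 genes were called lower (Mybpc1 added) and Mybpc2 was called higher. With only the groups compared, Neb, Myom1 and Mybpc1 were called lower and Mybpc2 higher. DESeq2 called 5 lower (Mybph added). For 5 µM against 2 µM on day 1 (5) the count became 2 with only the groups compared. For the change of the 5 µM effect on day 2 (1) it became 0 with only the groups compared and 0 to 2 with single libraries left out. The count became 3 with edgeR and 3 with DESeq2 (Mybpc1 lower, Neb and Myom3 higher in both). On day 4 (2) it became 4 with only the groups compared and 4 with DESeq2 (Myom3 and Mybph added in both), and 2 to 4 with single libraries left out. For this change the share of all genes called under these other settings is not given here, so these counts have no background to be read against. For the change of the 2 µM effect on day 2 (0) DESeq2 gave 1 (Mybpc1, with no read in the day 1 control libraries).

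Signs turned only for differences near 0 that passed no test. With single libraries left out, Mybpc2 on day 1 ran from -0.13 to 0.29 at 5 µM, -0.21 to 0.18 at 2 µM (0.019 without the pair) and -0.10 to 0.29 between the doses. Ttn ran from -0.29 to 0.064 at 2 µM on day 4 and -0.17 to 0.053 between the doses on day 2. Its change of the 2 µM effect ran from -0.027 to 0.26 on day 2 and -0.0056 to 0.35 on day 4. The change of the 2 µM effect also turned for Mybph on day 2 (-0.16 to 0.10) and for Myom3 on day 4 (-0.12 to 0.16). Mybpc1 at 5 µM on day 4 against control day 2 ran from -0.0065 to 0.34. For Myom1 the change of the 5 µM effect on day 2 ran from -0.12 to 0.10, and was 0.27 with a pseudocount of 0.5 and 0.68 with edgeR or DESeq2. The cause of these changes was not tested, beyond fewer libraries entering some fits.

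Same-numbered libraries did not deviate together over the groups, with a median r of 0.0055 over 135 pairs (from -0.225 to 0.128). Differently numbered libraries had a median r of -0.000561 over 270 pairs (from -0.131 to 0.235). The check pools all days, so it cannot exclude cultures shared within a day. A replicate block changed no call of the 8 genes, with 6, 7 and 7 called at 5 µM on days 1, 2 and 4.

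Over all genes, 2 µM on day 1 called 258 in limma, 460 with DESeq2, 0 with only the groups compared, 115 without the pair and 87 to 464 with single libraries left out. On day 2 it called 66, 181, 324, 125 and 19 to 31, and 38 with no filter. On day 4 it called 1145, and 445 with only the groups compared. At 5 µM on day 1 these were 1774 and 855, and for 5 µM against 2 µM 717 and 24. Depth limits the lowest genes: from day 2 on, Mybpc1 held 19 to 2747 reads per library and Mybpc2 73 to 965, where Mybph held 5705 to 44409.

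With plain library totals as scaling, the calls over all genes shifted towards lower values. For day 2 against day 1, 1128 were higher and 1602 lower at 5 µM, in place of 1665 and 1034, 1387 and 1494 at 2 µM, in place of 1645 and 1160, and 1361 and 1615 in control, in place of 1658 and 1220. For control day 4 against day 2 they were 1159 and 2243, in place of 1512 and 1821, and for 5 µM day 2 against control day 1 they were 1053 and 2042, in place of 1649 and 1551. The median log2 difference over all genes for 5 µM day 2 against day 1 became -0.077 in place of 0.026, and all 8 genes were still called there. That scaling ended the calls of Myom2 at 5 µM on day 4 against day 2 and of Myom3 at 2 µM on day 4.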
